A study of Rattus norvegicus with 4 samples.

Results

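Open chromatin was examined in the stretches of the rat genome where little of it was constant between retinal ganglion cells (RGCs) of embryonic day 21 (E21) and postnatal day 11 (P11). The series profiled RGCs, which send the output of the eye to the brain through the optic nerve, isolated from rat retina by immunopanning, a purification on antibody-coated dishes. Each stage had 2 libraries, made from separate litters, and 300000 cells were frozen per preparation before ATAC-seq, in which a transposase inserts adapters into accessible DNA. A stretch dense in insertions is called an open chromatin region (OCR), and OCRs were listed for every library on its own. The animals were Sprague Dawley rats per the methods of the study, the labels give no genotype, and no gene positions on the build of the lists were used here, so the purity of the RGCs was not checked against marker genes and no region was assigned to a gene.

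The OCRs of the 20 numbered chromosomes were merged across the 4 libraries, wherever they overlapped by at least 1 bp, into 224715 regions. Each chromosome was tiled in windows of 1 Mb, and a region was placed by its midpoint. The windows were chosen by the number of regions that all 4 libraries had called: a window with 1 to 10 of these was taken as sparse. This gave 405 sparse windows of the 2610 that held any region (15.5%), with 9216 regions (4.10% of all regions), which are the members described here. Of the members, 2209 were called in all 4 libraries, and this number was set by the rule and is not a finding. The rest of the genome held 2205 windows and 215499 regions, among them 27 windows with 156 regions and no region called in all libraries.

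As background, accessible sites in mammalian nuclei gather around promoters and the enhancers of gene-rich stretches, whereas long gene-poor stretches hold few of them and are often packed as heterochromatin at the nuclear lamina. Isolated distal enhancers of developmental genes can lie far out in such stretches. As a neuron matures its chromatin is remodelled, with embryonic enhancers closing and enhancers of the mature cell opening. RGCs lose most of their capacity to grow axons over the same interval, and the study compared the stages for that reason.

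On the numbered chromosomes the lists held 123707 and 151816 OCRs in E21 replicates 1 and 2 and 152301 and 163714 in P11 replicates 1 and 2. No read totals were used, but the fold enrichment and the p value of an OCR together give the number of fragments at its summit and the local background. The settings of the caller were not given, so a fragment here means 1 unit of its pileup, which need not be a whole sequenced fragment. The genome-wide background was 4.80 fragments in E21 replicate 1, 5.03 in E21 replicate 2, 4.30 in P11 replicate 1 and 4.17 in P11 replicate 2. The weakest OCR had 14 fragments at its summit at E21 and 13 at P11, so a region with fewer was not detectable at this depth. On a raised local background a call needed more, so a region without a call there could hold more. A region lost between the stages may be open in fewer cells or less open in each cell, and these cannot be told apart.

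Sparse windows took a larger share of the E21 lists than of the P11 lists. They held 4794 OCRs in E21 replicate 1 (3.88% of the list, 95% Wilson interval 3.77 to 3.98%) and 5916 in replicate 2 (3.90%, 3.80 to 4.0%). At P11 they held 4596 OCRs in replicate 1 (3.02%, 2.93 to 3.10%) and 5824 in replicate 2 (3.56%, 3.47 to 3.65%). Intervals cover counting error only. The 2 E21 libraries were nearly equal and both lay above both P11 libraries, while P11 replicate 1 stood furthest from the others. The E21 shares averaged 3.89 ± 0.015% and the P11 shares 3.29 ± 0.38% (SD, n = 2 per stage), and the difference of -0.598 percentage points exceeded the SD of either stage (exact permutation test over libraries, two-sided, p = 0.333, the smallest p that 2 against 2 libraries allow). Without P11 replicate 1 the difference was -0.181 points, and without P11 replicate 2 it was -0.810 points. Wherever a library was left out or equal numbers of OCRs were taken, regions were merged again and the sparse windows redrawn. In numbers the stages did not separate: E21 libraries had a mean of 5355 ± 793 OCRs in sparse windows and P11 libraries one of 5210 ± 868 (exact permutation p = 0.667). The OCRs of sparse windows covered 1.89 and 2.43 Mb at E21 and 1.92 and 2.43 Mb at P11, also without a separation of the stages. The lists as a whole were longer at P11, by 20246 OCRs on average, but with equal numbers of OCRs from each library the difference in share was wider, at -0.928 points. The sparse windows were chosen from calls of these same libraries. With the windows for each stage chosen from the other stage, the difference in share was -0.659 points. The E21 and P11 shares then came from different sets of windows, so this value cannot tell whether the choice of windows bears on the difference.

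**Figure D1:**
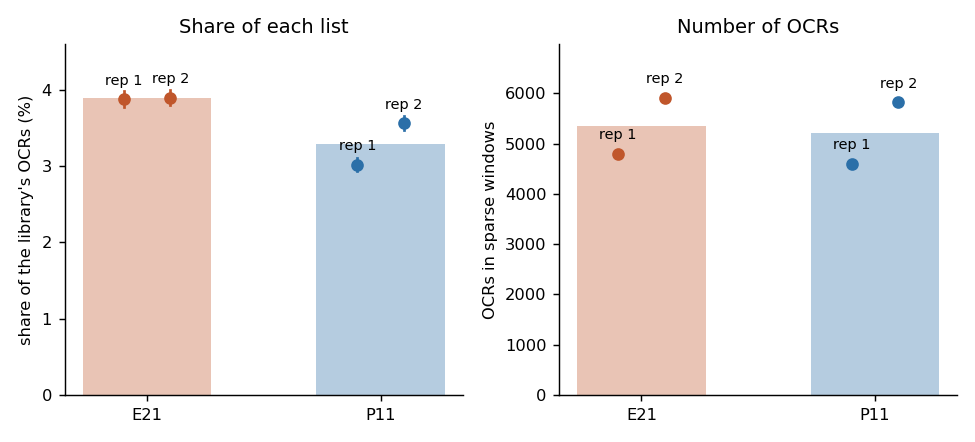
OCRs in sparse windows by library, as a percentage of the library's list (left) and as a number (right). Points are libraries, vertical lines on the left are 95% Wilson intervals and bars are means of 2 libraries; the E21 shares of 3.88% and 3.90% lie above the P11 shares of 3.02% and 3.56%, while the numbers overlap.

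Next, regions open at 1 stage were counted. A region was called E21-only if both E21 libraries and neither P11 library had it, and P11-only in the reverse case. Among the members 1162 regions were E21-only, 12.6% (Wilson interval 11.9 to 13.3%), where 7.61% of all regions received this call. A smaller share of the members was P11-only: 989 regions, or 10.7% (10.1 to 11.4%), against 12.5% of all regions. The members thus held 6.79% of the E21-only regions of the numbered chromosomes and 3.52% of the P11-only regions, beside 4.10% of all regions.

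Because the rule limits regions called in all libraries, it raises the share of every other kind of region, and the shares were also taken among the 7007 members not called in all 4. There E21-only regions made up 16.6% of the members and 11.7% of the rest of the genome, and P11-only regions 14.1% and 19.8%. Of the regions found in both E21 libraries, 28.3% of 4107 members were E21-only, against 14.9% in the rest. Of the regions found in both P11 libraries, 26.8% of 3688 members were P11-only, against 22.4% in the rest. The regions found in both libraries of a stage include those called in all 4, which the rule limits, so it raises both of the latter shares in the members. Among regions not called in all 4, the E21-only share was higher in the sparse windows and the P11-only share lower.

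The rule treats the stages alike, but it counts calls of the same 4 libraries that define the stage-only regions. The balance between the stages is therefore not independent of the choice of windows. There were 0.851 P11-only regions for each E21-only region in the sparse windows and 1.70 in the rest of the genome, so the ratio in the sparse windows was 0.5 times that elsewhere. In single pairs of libraries the number of regions that the P11 library alone had, divided by the number that the E21 library alone had, was 0.897 for both replicates 1, 1.56 for E21 replicate 1 with P11 replicate 2, 0.545 for E21 replicate 2 with P11 replicate 1 and 0.953 for both replicates 2. Of these pairs 3 leaned to E21 and 1 to P11, so the lean to E21 within the sparse windows was smaller than the spread between pairs. In the rest of the genome the same pairs gave 1.94, 2.43, 1.0 and 1.26. Divided by these, the sparse windows gave 0.463, 0.640, 0.543 and 0.757, with a mean of 0.601 ± 0.13 (SD, 4 pairs that share libraries), so that every pair was lower in the sparse windows than in the rest. No test over regions was made, since regions are not replicates.

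Single libraries bore on the size of this difference. Without P11 replicate 1 the ratio was 1.75 in sparse windows and 2.34 in the rest, so the sparse windows no longer leaned to E21, while their ratio was still 0.749 times that of the rest. Without any one of the other libraries it was between 0.458 and 0.523 times that of the rest. Without E21 replicate 1 the ratio was 0.456 in the sparse windows and 0.872 in the rest, so the rest then leaned to E21 as well. With equal numbers of OCRs from each library, which removes the difference in list length, the ratio was 0.562 in the sparse windows and 1.03 in the rest, or 0.546 times as high.

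With windows grouped by density, the ratio rose at every step, where density is counted from the same calls. From windows with 1 to 5 regions called in all libraries to those with 6 to 10, 11 to 20, 21 to 30, 31 to 40, 41 to 60 and 61 to 96, it was 0.798, 0.881, 1.23, 1.51, 1.69, 1.84 and 2.20. The E21-only share fell along the same steps from 13.6% to 5.69% of the regions, while the P11-only share lay between 10.7% and 13%. These shares count the regions called in all libraries, whose number defines the steps. Among regions not called in all libraries, the E21-only share fell from 17% to 9.85% and the P11-only share rose from 13.6% to 21.7% from the first step to the last, so both calls changed along the gradient. Just inside the limit, the 38 windows with 10 such regions held 154 E21-only and 152 P11-only regions, and just outside it, the 51 windows with 11 held 212 and 236. The ratios at these counts, 0.987 and 1.11, lay close together, while windows with 9 gave 0.770. Count by count within the sparse windows the ratio had no steady order, and ran from 0.640 at 3 such regions to 1.11 at 8. The 27 windows with none held 27 E21-only and 11 P11-only regions.

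**Figure D2:**
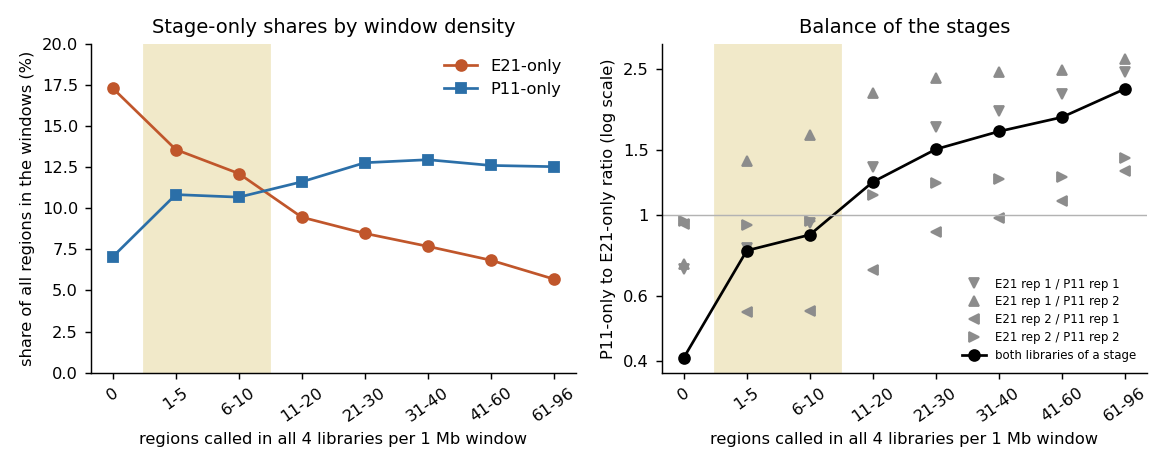
Shares of E21-only and P11-only regions (left) and their ratio on a log scale (right) in windows grouped by how many of their regions all 4 libraries called, with the sparse windows shaded. Grey symbols are the 4 cross-stage pairs of libraries and black points require both libraries of a stage; the E21-only share of all regions falls from 13.6% to 5.69% from the shaded windows to the densest, and the black ratio rises from 0.798 to 2.20.

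The members lay on every numbered chromosome, in 5 windows (chromosome 12) to 56 windows (chromosome 2). Chromosome 13 had the largest part of its windows in this class, 34 of 113 or 30.1%, and chromosome 17 the smallest, 6 of 91 or 6.59%. The ratio of P11-only to E21-only regions was lower in the sparse windows than in the rest of the same chromosome on 19 of 20 chromosomes. It was below 1 on 14 chromosomes in the sparse windows and on 0 in the rest.

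Chromosomes 10 and 17 stood at the ends of this range. The 11 sparse windows of chromosome 10 held 81 E21-only and 15 P11-only regions, a ratio of 0.185 against 1.10 in the rest of that chromosome. The 6 sparse windows of chromosome 17 held 5 and 27, a ratio of 5.40 against 3.01, and this was the chromosome where the order was reversed. Leaving out any one chromosome kept the ratio in sparse windows between 0.813 and 0.901, and the ratio relative to the rest between 0.473 and 0.517. On 16 chromosomes both P11 libraries had a smaller share of their regions in sparse windows than both E21 libraries, and on 1 chromosome a larger share.

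**Figure D3:**
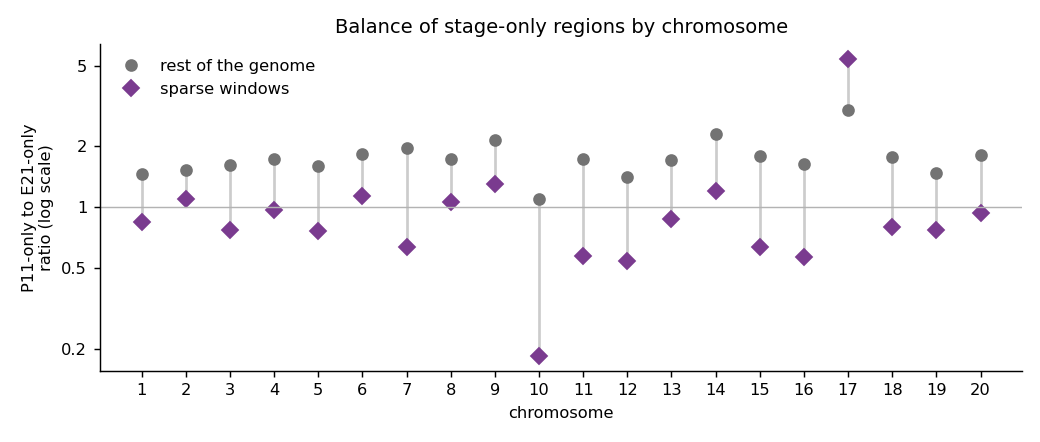
Ratio of P11-only to E21-only regions on a log scale for each numbered chromosome, in its sparse windows (diamonds) and in the rest of it (circles), with a line joining both. The diamond lies below the circle on 19 of 20 chromosomes, with chromosome 17 as the exception.

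A sparse window held from 1 to 60 regions, with a median of 21, against a median of 96 in windows over the limit. E21-only regions outnumbered P11-only regions in 194 sparse windows (47.9%), the reverse held in 140 (34.6%), and 71 had equal numbers, of which 27 had neither. In windows over the limit the same counts were 491 (22.5%), 1567 (71.9%) and 120. Both calls were spread over many windows: 85 windows were needed to collect 50% of the E21-only members, and 81 windows for the P11-only members.

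**Figure D4:**
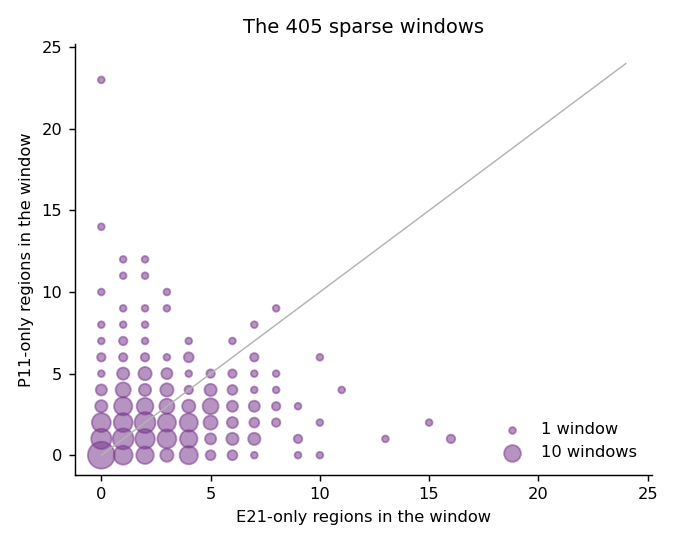
Number of E21-only (x axis) and P11-only (y axis) regions in each of the 405 sparse windows, with the area of a point growing with the number of windows at that position and a diagonal where both are equal. The point at 23 P11-only and 0 E21-only regions is 1 window of chromosome 2, and the points at 15 and 16 E21-only regions are 3 windows of chromosome 10.

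The 3 sparse windows with most E21-only regions all lay on chromosome 10. The window from 99000001 to 100000000 had 49 regions, of which 16 were E21-only and 1 P11-only. Of its regions, E21 replicates 1 and 2 had 35 and 42, and P11 replicates 1 and 2 had 18 and 21. The adjoining window, from 100000001 to 101000000, also had 16 E21-only regions and 1 P11-only region. Its counts were 32 and 51 regions at E21 and 12 and 13 at P11. The window from 32000001 to 33000000 had 15 E21-only and 2 P11-only regions, with 31 and 44 regions at E21 and 15 and 26 at P11. In all 3 windows both E21 libraries lay above both P11 libraries. The choice of the windows favours this order, since an E21-only region counts in both E21 libraries and in neither P11 library. Their E21-only regions were spread over 795 to 881 kb.

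The 3 windows with most P11-only regions lay on different chromosomes. On chromosome 2, from 194000001 to 195000000, 23 of 60 regions were P11-only, none was E21-only and 2 were called in all libraries. The E21 libraries had 10 and 5 regions there and the P11 libraries 42 and 44. These P11-only regions ran over 885 kb and were weak, with a median mean rank of 24.8 and none above 51.7, where a rank is the percentile of the OCR by −log10 q within its own list. Without this window the sparse windows held 966 P11-only regions, a ratio of 0.831 to E21-only regions. On chromosome 6, from 138000001 to 139000000, 14 regions were P11-only and 0 E21-only, with 22 and 15 regions at E21 and 47 and 41 at P11. On chromosome 14, from 65000001 to 66000000, 12 were P11-only and 1 was E21-only, with 13 and 21 regions at E21 and 27 and 39 at P11.

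Sparse windows also lay side by side. They formed 235 runs, of which 141 were single windows and 94 joined 2 or more, with 264 windows in all. The longest run lay on chromosome 13 from 1000001 to 19000000, in 18 consecutive windows. It held 324 regions, 76 of them in all libraries, 40 E21-only and 33 P11-only, and the libraries had 172 and 178 of its regions at E21 and 153 and 208 at P11. Here the stages overlapped. The next run, 8 windows on chromosome 2 from 64000001 to 72000000, held 28 E21-only and 17 P11-only regions, with 81 and 98 regions at E21 and 61 and 89 at P11. The run of 6 windows on chromosome 7 from 84000001 to 90000000 held 14 and 5, with 63 and 76 regions at E21 and 52 and 64 at P11. The libraries of the stages overlapped in both of these runs too.

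OCRs in sparse windows ranked lower by −log10 q and were narrower than those in the rest. The median rank of OCRs in sparse windows was 44.6 and 41.4 in the E21 lists and 42.8 and 44.7 in the P11 lists, against 49.8 to 50.3 in the rest, lower in 4 of 4 libraries, with differences of -8.92 to -5.31 points. This is given without a test, since windows with few regions in all libraries hold fewer strong ones by the rule. With ranks by fold enrichment the mean difference was -2.01 points in place of -6.68. The median width of an OCR was 315 to 348 bp in sparse windows and 382 to 403 bp elsewhere, and the median summit had 32 fragments at E21 and 25 or 26 at P11, against 40 or 41 and 31. Of the regions not called in all libraries, 45.8% of the members and 42.7% of the rest were called in a single library.

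The local background was also lower. It stood over the genome-wide level, by more than 1%, for 21.4% and 21.3% of the OCRs of sparse windows at E21 and 25.1% and 26.9% at P11. Elsewhere these shares were 56.0%, 57.1%, 61.4% and 61.5%. The stage-only regions differed in this as well: both calls of an E21-only region stood on the genome-wide background in 92.0% of members and 58.8% of the rest, and those of a P11-only region in 75.4% and 41.4%. Among regions of this kind alone, the ratio of P11-only to E21-only regions was 0.698 in sparse windows and 1.20 in the rest, 0.584 times as high. The local background of these regions is known only in the libraries that called them, and whether it bears on the difference was not tested.

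Stage-only members and stage-only regions elsewhere had like ranks within their lists. E21-only regions had a median rank of 30.4 in E21 replicate 1 and 37.1 in replicate 2, in the sparse windows and in the rest alike. P11-only regions had 34.5 and 37.2 in the sparse windows and 34.5 and 38.6 in the rest. The median fold of both kinds was higher in the sparse windows. It was 4.65 and 4.97 against 4.37 and 4.64 in the rest for E21-only regions. For P11-only regions it was 4.15 and 4.64 against 4.04 and 4.29. When both calls had to reach the 50th percentile of their lists, there were 190 E21-only and 164 P11-only members, a ratio of 0.863, against 2142 and 5113 in the rest, a ratio of 2.39. With the 75th percentile as the limit the members were 10 and 33, so among the strongest regions the sparse windows leaned to P11, as the rest did with 165 and 891.

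The strongest stage-only members of both directions shared 1 window. The leading E21-only member by mean rank, on chromosome 15 from 78947036 to 78947546, had a fold of 17.4 in both E21 libraries, with 100 and 104 fragments at the summit. The leading P11-only member was found on that chromosome too, from 78804227 to 78805195, 142 kb away with 2 other regions between them. Its fold was 13 and 17.2 in P11 replicates 1 and 2, with 68 and 88 fragments. Both stood on a background at or near the genome-wide level, and their window held 31 regions, of which 6 were called in all libraries, 8 were E21-only and 3 P11-only.

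Of the other leading E21-only members, one lay on chromosome 4 from 12235821 to 12236516, with a fold of 13.2 and 15.4 and 76 and 92 fragments. The other lay on chromosome 10 from 32352238 to 32353019, with a fold of 14.3 in both libraries and 82 and 85 fragments. The other leading P11-only members were both on chromosome 9. The one from 22192120 to 22192879 had a fold of 11.5 and 16.6 with 60 and 85 fragments, and the one from 5483427 to 5484177 a fold of 11.4 and 8.83 with 73 and 67 fragments.

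Stage-only members were also more isolated. The nearest region of any kind lay at a median of 11 kb from an E21-only member and 6.25 kb from a P11-only member, against 2.95 and 2.38 kb in the rest. Within 10 kb of a region called in all libraries lay 15.4% of the E21-only and 24.4% of the P11-only members. In the rest these shares were 54.5% and 61.7%. Another region of the same call lay within 10 kb for 9.98% of E21-only and 19.1% of P11-only members. Distances in sparse windows are longer by the rule, but in both parts of the genome the E21-only regions were the more isolated kind.

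To examine changes in degree, ranks were compared in the 2209 members called in all 4 libraries. Their OCRs had a median rank of 64.9 and 70.5 in the E21 lists and 62.6 and 70.9 in the P11 lists, and in the rest of the genome 63.9 and 71.2 at E21 and 69.0 and 70.7 at P11. The wide gap was that of P11 replicate 1, at -6.31 points, and the 4 differences did not separate from 0 (mean -1.47 ± 3.3, SD over 4 libraries, exact sign-flip permutation test, two-sided, p = 0.75, where 0.125 is the smallest possible). As a description across these members, which share their libraries, Spearman's rho of the ranks was 0.896 within E21, 0.824 within P11 and 0.591 to 0.603 across stages. The same pairs gave 0.906, 0.859 and 0.635 to 0.669 in the rest of the genome.

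Rank-shifted regions were those whose ranks did not overlap between the stages and whose mean ranks lay 25 points or more apart. Of the members, 266 ranked higher at E21, 12% (Wilson interval 10.8 to 13.5%), beside 8.65% of all regions called in all libraries. Higher at P11 ranked 258 members, 11.7% (10.4 to 13.1%), beside 12.3% of all. The share of members higher at E21 was thus above the background, and the share higher at P11 was close to it. The ratio of members higher at P11 to those higher at E21 was 0.970, and 1.43 in the rest. This balance differed at equal list lengths. With equal numbers of OCRs from each library the sparse windows were redrawn and held 11103 members. Of those called in all libraries, 7.27% then ranked higher at E21 and 10.9% higher at P11, a ratio of 1.5, so more ranked higher at P11. The same setting gave 4.93% and 11.9% in the rest, a ratio of 2.41, so the ratio was lower in sparse windows under both settings. In single pairs of libraries, between 9.28% and 21.6% of the members were lower at P11 by 25 points or more, and between 8.26% and 14.1% of the rest, with the sparse windows higher in 4 of 4 pairs. With ranks by fold enrichment the shares higher at E21 were closer, at 10.5% of the members and 9.21% of the rest. Without P11 replicate 2 they were 19.5% and 12.3%.

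**Figure D5:**
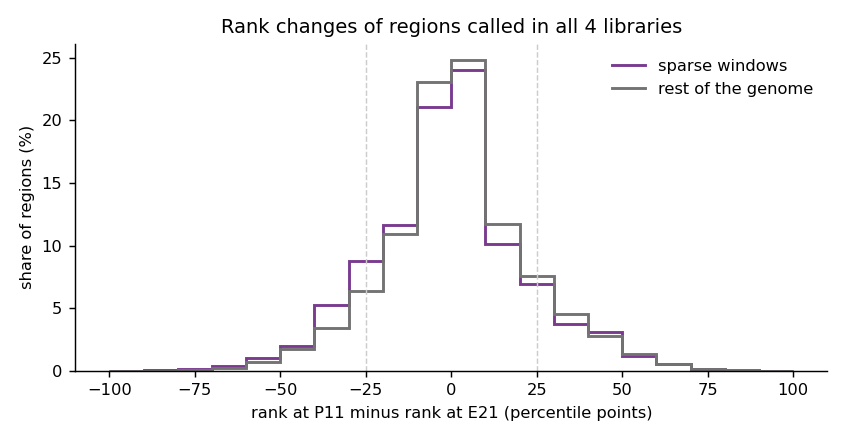
Change in rank between the stages, as the mean percentile at P11 minus that at E21, for regions called in all 4 libraries, in bins of 10 points as a share of the regions. Dashed lines mark 25 points; the curve of the sparse windows lies above that of the rest to the left of the lower line, with 12% against 8.56% of regions called higher at E21, and the curves lie close together to the right of the upper line.

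The members with the largest fall in rank lay on chromosomes 4, 10 and 2. The first, on chromosome 4 from 92350100 to 92350766, ranked at 87.2 and 86.8 at E21 and at 2.17 and 0.644 at P11. Its summit had 100 and 91 fragments at E21 and 15 and 14 at P11, so its P11 calls were near the lowest that could be made. The second, on chromosome 10 from 26856262 to 26857095, had a summit of 101 and 115 fragments at E21 and 17 and 18 at P11. The third, on chromosome 2 from 36753310 to 36754146, had 92 and 85 at E21 and 18 in both P11 libraries.

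In the other direction, the member on chromosome 20 from 54108995 to 54109526 ranked at 2.27 and 0.819 at E21 and at 80.5 and 90.6 at P11. It had 17 and 16 fragments at E21 and 44 and 67 at P11. The member on chromosome 2 from 110674049 to 110674691 had 19 and 17 fragments at E21 and 40 and 50 at P11. That on chromosome 3 from 78826527 to 78827205 was the single region of its window called in all libraries, with 26 and 19 fragments at E21 and 72 and 102 at P11. The groups did not overlap for any of these 6 members, as the criterion requires.

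The strongest members called in all libraries were chosen by mean rank over the libraries. They lay at the top of the scale, so the choice left almost no room for a change in rank. The first lay on chromosome 17 from 3769650 to 3770641, with a fold of 34.0 and 33.1 at E21 and 27.2 and 27.8 at P11. The next 2 lay near the start of the sequence of their chromosomes. One, on chromosome 3 from 41481 to 42184, had a fold of 22.4 and 21.9 at E21 and 23.1 and 23.5 at P11, and the other, at 174613 to 175487 of chromosome 1, a fold of 23.2 and 22.9 at E21 and 18.3 and 18.1 at P11. All 3 ranked above 99.9 in every library, and all stood on a local background of 19.6 to 35 fragments, well over the genome-wide level. In all, 515 members (23.3%) ranked at or above the 75th percentile in every library, against 25.9% of the regions called in all libraries elsewhere.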

How the data were processed

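Per the study's methods, the authors mapped the reads and called OCRs library by library with AIAP, an integrative package for ATAC-seq. The submitters' processing notes name MACS2 and the build Rnor_6.0 (rn6), with no versions. The deposited lists give for each OCR a score, the fold enrichment at the summit, −log10 p and −log10 q values and the summit. The lowest −log10 q was 2.01. The score was not used. Positions are printed 1-based on the build of the lists.

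OCRs of numbered chromosomes were merged and ranked by −log10 q within each library, from 0 to 100. Summit pileups were solved from fold and p value and were whole numbers of fragments within 0.02 for 100% of OCRs. Tests were exact permutation tests over libraries. Python 3.11.15, pandas 2.3.3, NumPy 2.4.6 and SciPy 1.17.1 were used, and the steps were tested on simulated lists. Reads per region are not in the lists, and the authors' differential analysis was not repeated. Named regions and windows were the first 3 of each kind by mean rank, rank change, count or run length. The window rule, the comparisons and the rules for names were chosen with earlier results of these data known. Gene lists, marker genes, motifs and sequences were not analysed, since no genome or annotation of this build was used here.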

Additional observations from a re-analysis of the deposited data

Results flagged for a closer look

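Chromosome X lay outside the comparisons, which used numbered chromosomes. By the same rule 96 of its 159 windows were sparse, with 1582 regions in them, of which 447 were called in all libraries, 151 were E21-only and 184 P11-only. The ratio of 1.22 P11-only regions for each E21-only region was below the 1.87 of the other windows of chromosome X, and unlike that of the numbered chromosomes it was above 1. The difference between chromosome X and the numbered chromosomes was not tested.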

How the results depend on the processing

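The ratio of P11-only to E21-only regions was lower in sparse windows than in the rest under each of 19 alternatives, from 0.362 to 0.749 times. Alternatives that changed the lists, the merging or the window rule redrew the sparse windows, so their members differ from those of the main result. With one library left out at a time it ran from 0.458 to 0.749, the highest without P11 replicate 1. The other value that moved by more than the SD over pairs of libraries was 0.362, for stage-only regions whose calls both reached the 50th percentile. That alternative was added after the data were seen, as were the genome-wide background (0.584), chromosome ends (0.486) and leaving out chromosome 10 (0.517) or 17 (0.501). With windows of 1 to 20 shared regions the ratio within sparse windows was 1.10, above 1, against 1.78 in the rest.

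The E21-only share of members, 12.6%, was 16.1% with equal numbers of OCRs and ran from 15.3 to 26.2% with one library left out (20% without E21 replicate 2, 21.5% without P11 replicate 2, 26.2% without E21 replicate 1). The P11-only share, 10.7%, was 9.07% with equal numbers of OCRs, a move opposite to that of the E21-only share, and ran from 11.9 to 26.9% with one library left out (16.7% without E21 replicate 2, 19.2% without P11 replicate 2, 26.9% without P11 replicate 1). Fewer calls were needed with a library left out, which raises these shares by construction. With the replicate block, in which libraries were compared within a number and 1 call per stage was enough, there were 31.5% E21-only and 29.1% P11-only members for the same reason, and the ratio relative to the rest was 0.592. Replicate numbers do not pair the litters, and deviations of same-numbered libraries from the stage means had a correlation of 0.027. Of members in all libraries, the share higher at E21 was 7.27% with equal numbers of OCRs (10.9% were then higher at P11), 22.9% with a minimum difference of 10 points and 3.53% with 40. The share higher at P11 was 20.9% and 4.98% with these. Leaving out one library gave 10.9 to 19.5% at E21, the highest without P11 replicate 2, and 10.7 to 16.3% at P11. Except where the construction is named, the cause was not tested.

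The share of a list in sparse windows was lower at P11 under 15 of 15 alternatives (-1.15 to -0.181 points). Among them were windows chosen from the other stage (-0.659), which are different windows for each stage. The median rank of members was below that of the rest under 14 of 14. No OCR had fewer than 13 or 14 fragments at its summit, and on a raised local background a region without a call could hold more.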

Other observations

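Calls found in a single library were unevenly spread over the libraries in sparse windows. E21 replicate 1 alone had 434 members, E21 replicate 2 alone had 1047, P11 replicate 1 alone had 505 and P11 replicate 2 alone had 1225. Of the regions of a library that were not called in all 4, the share found in the other library of the stage was 75.1% and 51.9% of members for E21 replicates 1 and 2 and 64.3% and 41.8% for P11 replicates 1 and 2. In the rest of the genome these shares were 75.6%, 43.3%, 64.7% and 55.8%, so P11 replicate 2 was the library whose members were found again less often than elsewhere by the widest margin, and E21 replicate 2 the library whose members were found again more often.

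Of the sparse windows, 7 were the first window of their chromosome and 12 the last one that held a region. The last window of a chromosome can be shorter than 1 Mb.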
